A study of Mus musculus with 6 samples.

Results

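Fatty acid and triglyceride synthesis is represented here by 35 genes, listed by symbol, that encode the regulators and enzymes of de novo lipogenesis, desaturation, elongation, activation and esterification, with the lipases that act on the product. All 35 were found among the 27381 genes of the table by their Entrez identifiers. The livers came from wild-type male C57BL/6J mice that started a NASH diet at 10 weeks of age and stayed on it for 32 weeks. The diet supplied 40% of its energy as palm oil fat and 20% as fructose, with 2% cholesterol. At week 20 every mouse received 1e+12 vector genomes of an adeno-associated virus (AAV) by intraperitoneal injection, and the livers were taken 12 weeks later. AAV-Hep-Glrx (labelled AAV-Glrx) carried HA/FLAG-tagged mouse Glrx and a woodchuck hepatitis virus element (WPRE) behind the Serpina7 (thyroxine-binding globulin) promoter, which is active in hepatocytes, and AAV-Hep-control (labelled AAV control) was the empty vector. RNA of 5 or 6 mice per group was combined into 3 pools per group, each measured on its own array, so that n counts pools and the p-values measure the spread between pools only. Both groups ate the NASH diet.

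De novo lipogenesis turns surplus carbohydrate into fatty acid in the liver cytosol. Citrate leaves the mitochondrion, is cleaved to acetyl-CoA, carboxylated to malonyl-CoA and condensed to palmitate, which is then desaturated and elongated. Activated fatty acids are placed on glycerol phosphate in steps that end in triglyceride, and the transcription factors SREBP-1c, ChREBP and the liver X receptors set the level of many of these enzymes in response to insulin, sugar and sterols. The question was whether hepatocyte Glrx, whose loss is known to cause fatty liver in mice, was accompanied by another level of these genes in NASH-diet liver.

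No gene of fatty acid or triglyceride synthesis changed past the threshold in AAV-Hep-Glrx liver. Most differences between groups were smaller than the range within each group (77.1% of the members), as for most genes of the table (73.4%). Srebf1, the gene of the lipogenic transcription factor SREBP-1, and Acsl1, a main acyl-CoA synthetase of the liver, had AAV-Hep-Glrx pools that all lay above the AAV-Hep-control pools, by 1.19-fold and 1.24-fold in the mean. Elovl5, an elongase of polyunsaturated fatty acids, had lower values in every AAV-Hep-Glrx pool, by 1.13-fold. Lpin1 and Lpin2, which encode the lipins that make diacylglycerol from phosphatidate, had lower means by 1.42-fold and 1.29-fold, with pools that overlapped. Fasn (fatty acid synthase) and Acly (ATP citrate lyase), at the core of the pathway, differed more between pools within each group than between the groups.

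Of the 35 genes, 0 passed at an adjusted p under 0.1 (limma with Benjamini-Hochberg adjustment over all 27381 genes), where 1 gene of the whole table passed (0.00365%), Zbtb16. Their adjusted p ran from 0.847 to 0.995. Lpin2 (lower) and the pair Srebf1 and Acsl1 (higher) reached an unadjusted p under 0.05, that is 1 lower and 2 higher, which is 8.57% of the members against 5.77% of all genes (3.01% lower and 2.76% higher). The pools of the groups did not overlap for 3 members (1 lower and 2 higher, 8.57%), against 10.9% of all genes (5.38% lower and 5.51% higher). The mean was lower for 19 members and higher for 16, where 50.5% of all genes were lower and 49.5% higher, and the median log2 fold change was -0.0099, beside -0.0012 for all genes. These counts lie near the background of the table. The difference between groups was smaller than the SD within groups for 25 of the 35 members, and for 68.8% of all genes. The 95% interval of the log2 fold change lay within 1 of 0 for 33 members, the exceptions being Elovl3 and Lpin1, so that changes smaller than these intervals could not be seen with 3 pools. For Glrx itself the AAV-Hep-Glrx pools had log2 values of 6.60, 7.77 and 7.24 and the AAV-Hep-control pools 6.11, 6.03 and 5.66, without overlap. Its log2 fold change was 1.27 (SE 0.27, adjusted p = 0.847 by limma), so the vector gene did not pass the threshold either.

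**Figure D1:**
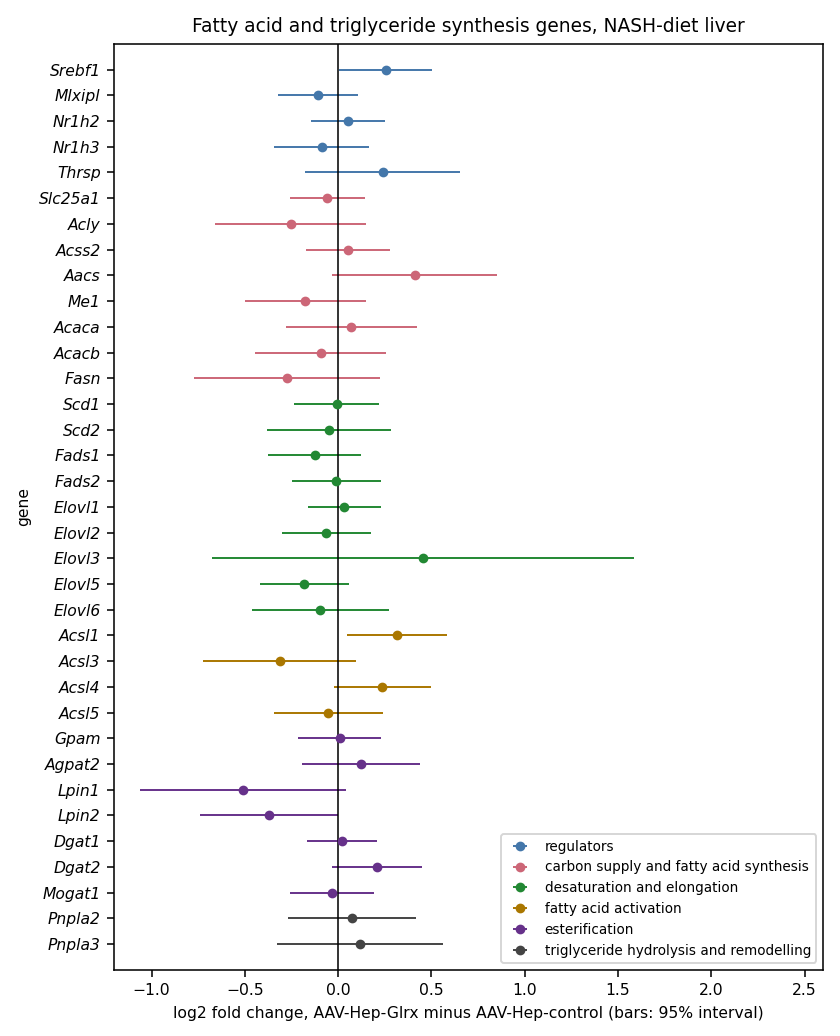
Log2 fold change (AAV-Hep-Glrx minus AAV-Hep-control, n = 3 pools each) of the 35 genes, with points coloured by role and bars for the 95% interval of the limma fit. The intervals of 32 genes cross 0, and those of Srebf1, Acsl1 and Lpin2 end close to it.

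Among the regulators, Srebf1 had log2 values of 7.62, 7.69 and 7.46 in AAV-Hep-control 1, 2 and 3 and of 7.84, 7.98 and 7.71 in AAV-Hep-Glrx 1, 2 and 3. The groups did not overlap, but AAV-Hep-Glrx 3 lay close to AAV-Hep-control 2. The log2 fold change was 0.25 (standard error, SE, 0.11; adjusted p = 0.858 by limma; 95% interval 0.0065 to 0.50) and was 0.19 without AAV-Hep-Glrx 2 or without AAV-Hep-control 3. A single value per gene does not separate the SREBP-1a and SREBP-1c transcripts. Mlxipl, which encodes the sugar-responsive factor ChREBP, had values of 8.69, 8.85 and 8.83 in AAV-Hep-control and 8.77, 8.64 and 8.62 in AAV-Hep-Glrx. The groups overlapped, with AAV-Hep-control 1 inside the range of AAV-Hep-Glrx, and the log2 fold change was -0.11 (SE 0.09). The liver X receptor genes Nr1h3 (LXR alpha) and Nr1h2 (LXR beta) had log2 fold changes of -0.09 and 0.05. Thrsp, which encodes a lipogenic protein induced by thyroid hormone and carbohydrate, had a log2 fold change of 0.24 (SE 0.18), which was 0.07 without AAV-Hep-Glrx 2 and 0.44 without AAV-Hep-Glrx 3. So the regulator with the clearest separation, Srebf1, and its partners in sugar and sterol sensing had differences of unlike sign and small size.

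The promoters of the members with separated groups or an unadjusted p under 0.05, and of Fasn, are shown because SREBP-1 is known to act on lipogenic promoters together with the factors NF-Y and Sp1. RefSeq windows (GRCm38.p6; 250 bases before to 50 after a transcript start) matched 29 of the 35 genes, with 40 windows in all. Capitals mark matches, on either strand, to the sterol regulatory element TCACNCCAC, the E-box CACGTG, the CCAAT box that NF-Y binds and the GC box GGGCGG that Sp1 binds; in Fasn a pair of CCAAT matches on opposite strands overlap in a run of capitals. The windows are chr11:60210422-60210721 on the minus strand (1 of 3 for this gene), chr8:46490716-46491015 on the plus strand (1 of 2), chr9:77917115-77917414 on the plus strand, chr17:71183282-71183581 on the plus strand (1 of 3) and chr11:120824498-120824797 on the minus strand. Where a gene had several windows, the one with most kinds of motif is printed.
Srebf1: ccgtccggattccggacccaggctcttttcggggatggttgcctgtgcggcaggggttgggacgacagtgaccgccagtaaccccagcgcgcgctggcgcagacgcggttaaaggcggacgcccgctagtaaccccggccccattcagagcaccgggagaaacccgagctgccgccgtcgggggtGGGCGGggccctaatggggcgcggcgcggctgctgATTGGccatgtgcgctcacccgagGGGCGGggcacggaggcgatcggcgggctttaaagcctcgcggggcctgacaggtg
Acsl1: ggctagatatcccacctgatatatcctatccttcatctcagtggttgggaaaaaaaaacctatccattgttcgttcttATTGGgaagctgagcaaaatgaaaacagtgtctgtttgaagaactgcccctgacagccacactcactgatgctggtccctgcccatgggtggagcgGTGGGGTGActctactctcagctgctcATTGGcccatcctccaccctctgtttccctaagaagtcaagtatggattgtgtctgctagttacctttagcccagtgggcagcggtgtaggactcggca
Elovl5: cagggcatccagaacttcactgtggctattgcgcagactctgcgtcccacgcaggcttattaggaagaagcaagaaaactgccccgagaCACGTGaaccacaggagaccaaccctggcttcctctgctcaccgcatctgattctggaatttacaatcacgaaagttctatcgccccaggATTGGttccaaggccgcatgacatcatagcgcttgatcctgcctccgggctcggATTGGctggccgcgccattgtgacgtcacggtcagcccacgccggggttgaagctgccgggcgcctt
Lpin2: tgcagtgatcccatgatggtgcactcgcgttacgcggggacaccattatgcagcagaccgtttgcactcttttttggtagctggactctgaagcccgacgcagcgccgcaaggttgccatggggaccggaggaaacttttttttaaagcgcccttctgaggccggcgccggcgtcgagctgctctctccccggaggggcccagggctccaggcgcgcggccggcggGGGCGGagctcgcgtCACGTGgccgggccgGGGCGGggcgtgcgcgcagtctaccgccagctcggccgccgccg
Fasn: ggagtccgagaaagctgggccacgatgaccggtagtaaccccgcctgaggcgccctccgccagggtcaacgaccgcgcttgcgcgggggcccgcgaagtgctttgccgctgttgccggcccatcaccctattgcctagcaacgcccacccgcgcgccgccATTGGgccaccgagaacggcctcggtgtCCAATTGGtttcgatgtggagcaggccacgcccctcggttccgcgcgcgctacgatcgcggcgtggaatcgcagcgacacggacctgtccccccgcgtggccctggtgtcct
The sterol regulatory element was found in the Acsl1 window, as GTGGGGTGA on the printed strand, and in a window of Mlxipl, that is in 2 of 40 member windows (5%) and in 1.24% of all 32851 windows. The E-box was found in 10% of the member windows (Elovl5, Lpin2, Mlxipl and Slc25a1) and in 7.15% of all windows. CCAAT was found in 47.5% against 37.4%, and GGGCGG in 50% against 35.7%. Genes with higher means (Srebf1 and Acsl1) and with lower means (Elovl5 and Fasn) both carried CCAAT in the printed windows. A match of letters is a description of the sequence and was not tested for binding.

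In carbon supply and fatty acid synthesis none of 8 genes had separated groups. Fasn had log2 values of 10.05, 9.44 and 9.78 in AAV-Hep-control 1, 2 and 3 and of 9.34, 9.91 and 9.20 in AAV-Hep-Glrx 1, 2 and 3. The groups overlapped, since AAV-Hep-Glrx 2 was higher than AAV-Hep-control 2 and 3. Its log2 fold change of -0.27 (SE 0.22, adjusted p = 0.901 by limma) was smaller than the range within AAV-Hep-control (0.609) and within AAV-Hep-Glrx (0.711). It was -0.49 without AAV-Hep-Glrx 2, -0.43 without AAV-Hep-control 2 and -0.13 without AAV-Hep-control 1 or without AAV-Hep-Glrx 3. Acly, which makes the acetyl-CoA that Fasn uses, had the same high pools, with 8.34, 7.90 and 7.95 in AAV-Hep-control and 7.66, 8.14 and 7.62 in AAV-Hep-Glrx (log2 fold change -0.25, SE 0.17). Acaca, the cytosolic acetyl-CoA carboxylase that makes malonyl-CoA, had values of 8.77, 8.36 and 8.62 in AAV-Hep-control and 8.62, 8.91 and 8.44 in AAV-Hep-Glrx. The groups overlapped over most of their range, with AAV-Hep-Glrx 2 above all AAV-Hep-control pools and AAV-Hep-control 2 below all AAV-Hep-Glrx pools. The log2 fold change of Acaca was 0.07 (SE 0.15). Acacb, the mitochondrial carboxylase isoform that restrains fatty acid oxidation, was at -0.09, the citrate carrier Slc25a1 at -0.06, the acetate-activating enzyme Acss2 at 0.05 and the NADPH-producing malic enzyme Me1 at -0.18. Aacs, which activates acetoacetate for lipid synthesis, had the largest difference of these genes in the mean. Its values were 5.98, 6.50 and 6.69 in AAV-Hep-control and 6.99, 6.83 and 6.57 in AAV-Hep-Glrx, a log2 fold change of 0.41 (SE 0.19, adjusted p = 0.858 by limma). The low AAV-Hep-control 1 accounted for much of it in the arithmetic, since the value was 0.21 without that pool.

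**Figure D2:**
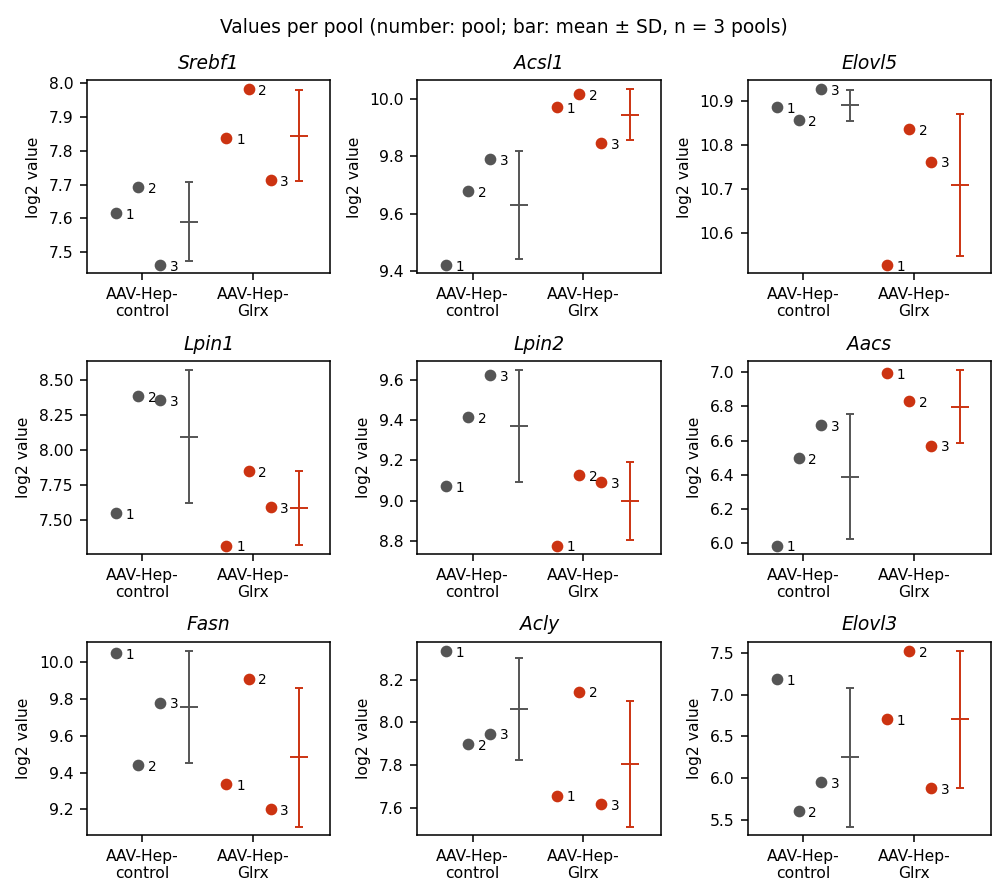
Log2 value of 9 genes in each pool (points, numbered by pool) with mean and SD per group (n = 3 pools), each panel on its own scale. Srebf1, Acsl1 and Elovl5 have no overlap between groups, while in Fasn, Acly and Elovl3 AAV-Hep-control 1 and AAV-Hep-Glrx 2 stand above the other pools of their groups.

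Desaturases and elongases were 7 genes with a lower and 2 with a higher mean, most of them by little. Scd1, the main stearoyl-CoA desaturase of the liver, had values of 12.09, 11.88 and 12.04 in AAV-Hep-control and 11.89, 12.08 and 12.02 in AAV-Hep-Glrx. The groups covered nearly the same range, and the log2 fold change was -0.0087 (SE 0.10) with a 95% interval from -0.23 to 0.22. Scd1 lies near the upper end of the array's scale (the highest value in the table was 12.9), where differences can be compressed. Scd2 was at -0.05 and was highest in AAV-Hep-control 1 (7.83, against 7.30 to 7.51 elsewhere). The desaturases of polyunsaturated fatty acids, Fads1 and Fads2, were at -0.13 and -0.0099. Elovl5 had values of 10.89, 10.86 and 10.93 in AAV-Hep-control and 10.53, 10.84 and 10.76 in AAV-Hep-Glrx. The groups did not overlap, but by a narrow margin, and AAV-Hep-Glrx 1 was the pool farthest below. Its log2 fold change was -0.18 (SE 0.10, adjusted p = 0.872 by limma) and -0.09 without that pool. Elovl6, which lengthens palmitate, was at -0.10, Elovl2, which acts on polyunsaturated chains, at -0.06, and Elovl1, which makes very long saturated chains, at 0.03. Elovl3, an elongase of very long chains known for its daily rhythm and sex difference in mouse liver, varied most of all members. It had values of 7.18, 5.60 and 5.96 in AAV-Hep-control and 6.71, 7.52 and 5.88 in AAV-Hep-Glrx, a range of 1.92 over the 6 pools, and its SD within groups was larger than that of 99.7% of all genes. The groups overlapped over most of that range. The log2 fold change of 0.46 (SE 0.49) was 0.92 without AAV-Hep-control 1, 0.87 without AAV-Hep-Glrx 3, 0.13 without AAV-Hep-control 2 and 0.05 without AAV-Hep-Glrx 2, so it rested on single pools.

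The 4 genes of fatty acid activation fell on both sides of 0. Acsl1 had values of 9.42, 9.68 and 9.79 in AAV-Hep-control and 9.97, 10.02 and 9.85 in AAV-Hep-Glrx. Every AAV-Hep-Glrx pool was above every AAV-Hep-control pool, with AAV-Hep-control 1 the farthest below. The log2 fold change was 0.31 (SE 0.12, adjusted p = 0.847 by limma; 95% interval 0.05 to 0.58), and 0.21 without AAV-Hep-control 1. Acsl4, which prefers arachidonic acid, was at 0.24 (SE 0.11), and its AAV-Hep-Glrx pools (7.916, 8.071 and 7.999) overlapped with AAV-Hep-control 3 alone (7.928, with 7.775 and 7.571 in AAV-Hep-control 1 and 2). Acsl3, an isoform of the endoplasmic reticulum and lipid droplet, was at -0.31 (SE 0.18) and -0.11 without AAV-Hep-control 1, where it was highest (6.20). Acsl5 was at -0.05. Differences between the responses of these isoforms were not tested.

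In esterification Lpin1 and Lpin2 had lower means, while the acyltransferases other than Mogat1 had slightly higher ones. Lpin1 had values of 7.55, 8.39 and 8.36 in AAV-Hep-control and 7.32, 7.85 and 7.59 in AAV-Hep-Glrx, and it was the only member with a log2 fold change of 0.5 or more in size (-0.51, SE 0.24, adjusted p = 0.858 by limma). AAV-Hep-control 1 lay within the AAV-Hep-Glrx range, and AAV-Hep-control 2 and 3 lay above it. Without AAV-Hep-control 1 the log2 fold change was -0.78, and without AAV-Hep-control 2 it was -0.37. Lpin2, the other abundant lipin of the liver, had values of 9.08, 9.42 and 9.62 in AAV-Hep-control and 8.78, 9.13 and 9.10 in AAV-Hep-Glrx. Its order of pools was like that of Lpin1, with AAV-Hep-control 1 inside the AAV-Hep-Glrx range and AAV-Hep-Glrx 1 the lowest. The log2 fold change was -0.37 (SE 0.16, adjusted p = 0.858 by limma; 95% interval -0.74 to -0.00065), and -0.52 without AAV-Hep-control 1 and -0.24 without AAV-Hep-control 3. Gpam, the mitochondrial acyltransferase that starts glycerolipid synthesis, had values of 9.33, 9.25 and 9.26 in AAV-Hep-control and 9.17, 9.43 and 9.26 in AAV-Hep-Glrx. The AAV-Hep-Glrx pools spread to both sides of the AAV-Hep-control pools, and the log2 fold change was 0.0072 (95% interval -0.22 to 0.23). Agpat2, the next acyltransferase, was at 0.12. Dgat2, the diacylglycerol acyltransferase that handles newly made fatty acids, had values of 8.97, 9.24 and 9.17 in AAV-Hep-control and 9.41, 9.37 and 9.23 in AAV-Hep-Glrx. The overlap was between AAV-Hep-control 2 and AAV-Hep-Glrx 3 alone, and the log2 fold change was 0.21 (SE 0.10, adjusted p = 0.859 by limma). Dgat1, the other enzyme of this step, was at 0.02 and Mogat1, a monoacylglycerol acyltransferase, at -0.03. Mogat1 was the only member with a mean below the median of all genes (3.92), where probe signal is near background and a difference is understated.

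Of the lipases, Pnpla2, which encodes adipose triglyceride lipase, was at 0.07 (SE 0.15). Pnpla3, a lipid droplet protein known for a human variant linked to fatty liver, had values of 4.347, 4.002 and 3.681 in AAV-Hep-control and 4.001, 4.429 and 3.950 in AAV-Hep-Glrx. The groups overlapped over most of their range, and the log2 fold change was 0.12 (SE 0.19). Its means (4.01 and 4.13) were only a little above the median of all genes (3.92), and AAV-Hep-control 3 lay below it.

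The pools of a group differed from each other in a way that many lipogenic genes shared. AAV-Hep-Glrx 2 was the highest of the 3 AAV-Hep-Glrx pools for 29 of the 35 members (82.9%), against 32.9% of all genes, and the members were higher there than the mean of AAV-Hep-Glrx 1 and 3 by a median of 0.19 on the log2 scale. Glrx was itself highest in that pool (7.77). Among the AAV-Hep-control pools, which received the empty vector, Glrx was highest in AAV-Hep-control 1 (6.11). A link between the level of Glrx and these genes was not tested. The 6 members that were not highest in AAV-Hep-Glrx 2 were Mlxipl, Aacs, Elovl2, Dgat1, Dgat2 and Pnpla2. All 4 activation genes, 8 of 9 desaturases and elongases, 7 of 8 genes of carbon supply and synthesis, 5 of 7 esterification genes, 4 of 5 regulators and 1 of 2 lipases were highest in that pool. In AAV-Hep-control the pattern was weaker, with AAV-Hep-control 1 highest for 16 members (45.7%, against 33.4% of all genes). Both held for 16 members (45.7%, against 12.2%), which were Nr1h3, Thrsp, Acly, Acss2, Me1, Acaca, Fasn, Scd1, Scd2, Elovl3, Elovl6, Acsl3, Acsl5, Gpam, Agpat2 and Pnpla3. In the wider list of 47 pathway genes described below, both held for 8 (17%). There AAV-Hep-control 3 was the highest control pool for 46.8% of the genes and AAV-Hep-control 1 for 23.4%. These counts were formed after the values were seen and carry no test. The range within each group was larger than the difference between groups for 27 members (77.1%), beside 73.4% of all genes.

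**Figure D3:**
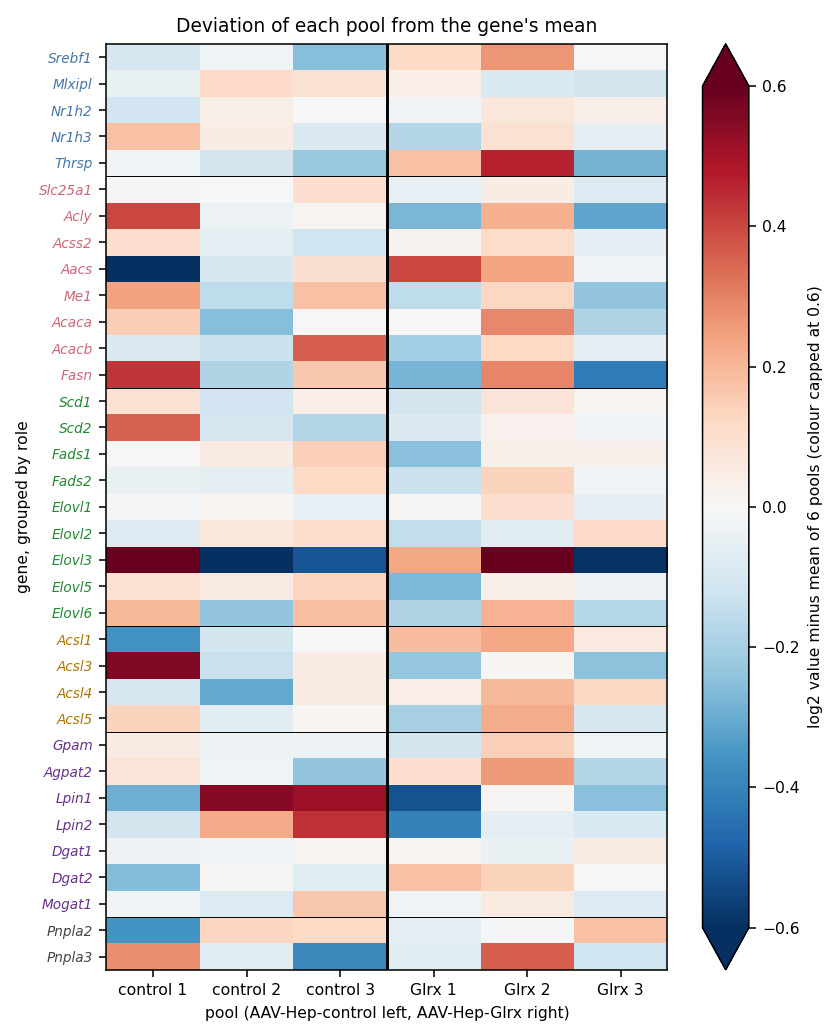
Log2 value of each pool minus the gene's mean over 6 pools, with genes in rows by role and pools in columns (colour capped at 0.6). AAV-Hep-Glrx 2 is above the mean of the other AAV-Hep-Glrx pools for 31 of 35 genes, and Lpin1 and Lpin2 are highest in AAV-Hep-control 2 and 3.

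Other cell types also differed between these pools. The macrophage markers (7 of 8 measured) had a log2 summed intensity of 9.96, 9.62 and 9.56 in AAV-Hep-control 1, 2 and 3 and of 9.39, 9.73 and 9.69 in AAV-Hep-Glrx 1, 2 and 3. Their sum was thus also highest in AAV-Hep-control 1 and AAV-Hep-Glrx 2. By gene, 4 of 7 were highest in AAV-Hep-Glrx 2 within their group, while Cd68 and Timd4 were lowest there. The stellate cell markers (8 of 8 measured) were at 10.99, 10.85 and 10.77 in AAV-Hep-control and at 10.74, 10.99 and 10.91 in AAV-Hep-Glrx, with the same high pools in the sum. Within AAV-Hep-Glrx, 5 of 8 genes were highest in AAV-Hep-Glrx 2, while Des and Pdgfrb were lowest there. The cholangiocyte markers (6 of 6 measured) ran the other way in AAV-Hep-Glrx, at 8.77, 8.63 and 8.81 with AAV-Hep-Glrx 2 the lowest (0 of 6 genes highest there), and were at 8.76, 8.89 and 8.71 in the AAV-Hep-control pools. The endothelial markers (8 of 8 measured) were at 10.52, 10.47 and 10.44 for AAV-Hep-control and at 10.34, 10.49 and 10.47 for AAV-Hep-Glrx, with 3 of 8 genes highest in AAV-Hep-Glrx 2. Among them Lyve1, a receptor of sinusoidal endothelium, had lower values in AAV-Hep-Glrx (6.45, 6.37 and 6.72) than in AAV-Hep-control (6.89, 7.07 and 6.79), without overlap. It was the only endothelial marker without overlap (12.5%, against 10.9% of all genes), and 4 of the 8 had a lower and 4 a higher mean. The hepatocyte markers (10 of 10 measured), whose sum is set by the brightest probes, had a log2 summed intensity of 14.62 to 14.69 in AAV-Hep-control and 14.59 to 14.63 in AAV-Hep-Glrx, and 7 of the 10 were highest in AAV-Hep-Glrx 2 within their group. Alb, the gene of serum albumin, was between 12.34 and 12.41 in all pools. Tat, a hepatocyte enzyme of tyrosine breakdown, was lower without overlap in AAV-Hep-Glrx (10.66, 10.75 and 10.49, against 11.31, 10.98 and 11.02; log2 fold change -0.47, adjusted p = 0.847 by limma), and Pck1, of gluconeogenesis, was at -0.31 with overlap. Of the 10 hepatocyte markers, 5 had a lower and 5 a higher mean, and Tat alone had no overlap (10%). The B and T cell markers (8 of 8 measured) had a lower mean in AAV-Hep-Glrx for 7 genes (50.5% of all genes did). The exception was Cd3d (log2 fold change 0.20). Cd79a (-0.61) and Cd3e (-0.30) had no overlap (25%, against 10.9% of all genes). The mean lay above the median of all genes for 5 of the 8. The log2 summed intensity of the list ran from 7.09 to 7.35 in AAV-Hep-control and from 6.95 to 7.03 in AAV-Hep-Glrx, without overlap. The part of cell composition in the pool pattern was not tested. In whole liver, fewer cells of a type and less RNA per cell cannot be told apart. Neither the labels nor the methods say how the mice were divided among the pools or whether they were fed at collection.

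Adipocytes, another cell type that makes triglyceride, were checked because Srebf1, Acsl1 and Dgat2 are also active there. Of 8 adipocyte markers, 6 had a higher mean (49.5% of all genes did) and 2 had groups that did not overlap (10.9% of all genes), Cfd (adipsin; 4.69, 4.91 and 4.96 against 5.17, 5.22 and 5.12) and Lipe (hormone-sensitive lipase; 4.81, 5.24 and 5.30 against 5.36, 5.38 and 5.44). The log2 summed intensity of the list did not overlap, at 7.63, 7.66 and 7.57 for the AAV-Hep-control pools and at 7.71, 7.84 and 7.81 for the AAV-Hep-Glrx pools. That sum is set by the brightest genes of the list, Fabp4, Lipe and Cfd. Adipoq, the defining adipocyte hormone, was between 2.00 and 2.42 in all pools, below the median of all genes, and overlapped. The others overlapped too, with log2 fold changes of 0.24 for Fabp4, the brightest of the list, 0.05 for Plin1, 0.02 for Lep, -0.03 for Adrb3 and -0.15 for Retn. Plin1 and Lep also had means below the median of all genes. The part of these markers in the values of Srebf1 and Acsl1 was not tested.

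**Figure D4:**
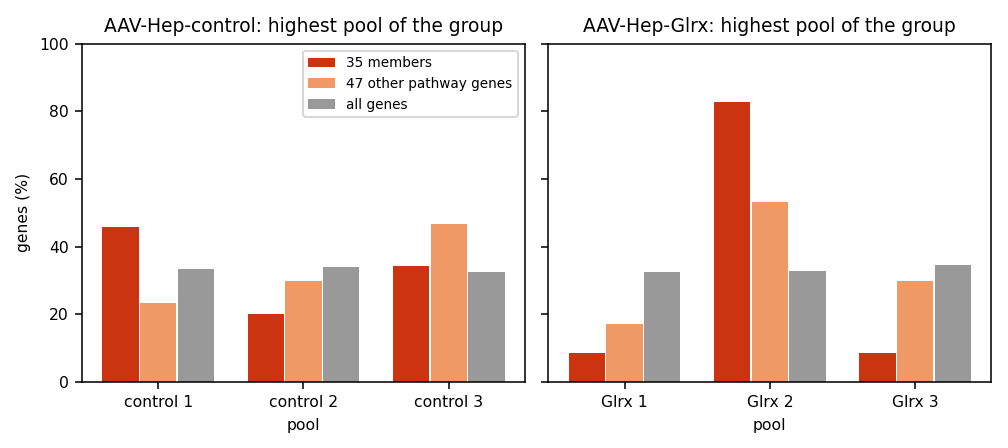
Share of genes (%) for which each pool is the highest of its group, for the 35 members, 47 other genes of the pathway and all 27381 genes. AAV-Hep-Glrx 2 is the highest AAV-Hep-Glrx pool for 82.9% of the members, 53.2% of the other pathway genes and 32.9% of all genes. AAV-Hep-control 1 is the highest AAV-Hep-control pool for 45.7%, 23.4% and 33.4%.

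A wider list of 47 pathway genes (SREBP and ChREBP partners, sugar and NADPH supply, further elongation, uptake and acylation enzymes), all measured, gave no call either. In limma 0 passed at an adjusted p under 0.1, while an unadjusted p under 0.05 was reached by 1 higher and 0 lower genes, which is 2.13% against 5.77% of all genes. That gene was Lpin3, the third lipin, with values of 3.51, 3.53 and 3.57 in AAV-Hep-control and 3.69, 3.75 and 3.77 in AAV-Hep-Glrx. Its groups did not overlap, and its log2 fold change of 0.20 (SE 0.08) was of opposite sign to those of Lpin1 and Lpin2, at a level below the median of all genes. The groups did not overlap for 8 of the 47 (1 lower and 7 higher, 17%, against 10.9% of all genes), and the median log2 fold change was 0.04.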

How the data were processed

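RNA of whole liver was hybridized to 6 Affymetrix Mouse Gene ST arrays, 3 per group. The deposited log2 values, 1 per Entrez gene, come from Robust Multiarray Average processing by the authors (affy 1.61.0 and R 3.6.0 per the submitters' processing notes) and Brainarray gene definitions. That method equalises the arrays at the level of probes, which can hide a shift of most genes, and the medians of the deposited gene values still ran from 3.89 (AAV-Hep-Glrx 2) to 3.95 (AAV-Hep-control 2). The build behind the probes is not stated. Values were used as deposited. Symbols were taken from the Entrez identifiers through RefSeq (27358 of 27381 genes) and were equal to the platform symbol for all 26794 genes that the platform table names. The 2 groups were compared by lmFit followed by eBayes (limma 3.58.1, R 4.3.3), as in the study's methods, with no covariate or filter and Benjamini-Hochberg adjustment over all genes. With 3 pools against 3 the smallest exact two-sided permutation p is 0.1, so single genes were judged by limma, and precision is limited by the number of arrays. No hybridization date was at hand, so no batch was tested. Alternatives were an intensity trend, a robust prior, centring, another quantile normalization, a level filter, array weights, a replicate block, other thresholds and leaving out each array. The steps were tested on simulated data. The members and lists were chosen with earlier results of these data known. All members are named; values per pool are given for members at an unadjusted p under 0.05, with separated groups, with a log2 fold change of 0.5 or more in size, and for 8 genes fixed by name (Srebf1, Mlxipl, Acaca, Fasn, Scd1, Gpam, Dgat2 and Pnpla3). Acly, Aacs, Acsl4 and Elovl3 were added after their values were seen. Other genes of the pathway are named at an unadjusted p under 0.05 or from a log2 fold change of 0.5 in size.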

Additional observations from a re-analysis of the deposited data

How the results depend on the processing

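No member passed at an adjusted p under 0.1 in any of 13 alternatives (limma, lowest adjusted p 0.673), and 24 of the 35 members kept the sign of their difference in all of those run. The count of all genes past that threshold was 1, 0 after another quantile normalization, with the replicate block or at an adjusted p under 0.05, and 0 to 2 when an array was left out. By unadjusted p under 0.05, 1 member was lower and 2 were higher. They were 2 lower and 5 higher with an intensity trend in the prior variance, 0 lower with arrays centred on the median, 0 lower and 1 higher after quantile normalization again, 2 lower with array weights and 2 lower with the replicate block. With an array left out they were 0 to 3 lower and 0 to 4 higher. Members with separated groups were 1 lower and 2 higher. They were 0 lower and 3 higher after centring, where Elovl5 overlapped, and 1 lower and 3 higher after quantile normalization again. With an array left out they were 1 to 6 lower and 2 to 6 higher, where fewer pools make separation easier. Of the other pathway genes, 0 were lower and 1 higher. The lower count was 1 with the trend, with array weights, after quantile normalization or among genes above the median level, and 0 to 1 with an array left out. The higher count was 2 after centring or quantile normalization, 0 with the block and 0 to 3 with an array left out. The median log2 fold change of the members stayed between -0.06 and 0.03. Differences near 0 turned sign. Scd1 was at 0.0079 after centring and 0.029 after quantile normalization, Fads2 at 0.0068 after centring and Gpam at -0.0069 after quantile normalization. With an array left out the log2 fold change ran from -0.055 to 0.18 for Acaca, from -0.18 to 0.063 for Acacb, from -0.068 to 0.044 for Scd1, from -0.15 to 0.11 for Scd2, from -0.080 to 0.052 for Fads2, from -0.0085 to 0.068 for Elovl1, from -0.18 to 0.032 for Acsl5, from -0.063 to 0.065 for Gpam, from -0.084 to 0.038 for Mogat1, from -0.087 to 0.16 for Pnpla2 and from -0.048 to 0.28 for Pnpla3. The cause was not tested. No pairing of the arrays by replicate number is stated. Deviations from the group means correlated across genes at -0.04, -0.17 and 0.02 for pools 1, 2 and 3. Pools of unlike number correlated at -0.14 to 0.18, highest for AAV-Hep-control 1 with AAV-Hep-Glrx 2. With 3 pools per group these correlations cannot decide on pairing, and the block is only a check on a shared number. Where probe signal is near background, as for Mogat1 and Lpin3, a difference is understated.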

Other observations

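The sterol sensors that hold SREBP in the endoplasmic reticulum, Insig1 and Insig2, had lower means in AAV-Hep-Glrx. Insig1 had log2 values of 9.17, 8.74 and 9.03 in AAV-Hep-control and 8.47, 8.75 and 8.77 in AAV-Hep-Glrx, a log2 fold change of -0.32 (SE 0.14, adjusted p = 0.858 by limma). Insig2 had values of 8.28, 7.95 and 7.72 in AAV-Hep-control and 7.55, 7.88 and 7.59 in AAV-Hep-Glrx, a log2 fold change of -0.31 (SE 0.16, adjusted p = 0.859 by limma). Both overlapped between groups. Other genes of SREBP processing in the wider list went both ways. Scap and Mbtps1 had higher means without overlap (log2 fold changes 0.15 and 0.14), and Mbtps2 had a lower mean with overlap (-0.12). Hacd3, a dehydratase of the elongation cycle, had values of 7.74, 7.87 and 7.94 in AAV-Hep-control and 8.02, 8.12 and 8.03 in AAV-Hep-Glrx without overlap, a log2 fold change of 0.21 (SE 0.09, adjusted p = 0.858 by limma). The values of all genes named here were known when they were picked, and none passed the test.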
